A study of Mus musculus with 10 samples.

Results

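Cytokine receptor genes whose products act upstream of STAT5 were examined in BAT of mice that lack STAT5 in adipocytes. The set held 10 genes chosen by name, Prlr, Epor, Lepr, Csf2ra, Csf2rb, Il3ra, Il2rg, Il4ra, Osmr and Il6st, and all 10 were among the 13568 genes tested of the 24454 genes counted. RNA-Seq was performed on BAT of 5 control and 5 Stat5Adipoq male mice at 2 months of age on a C57BL/6N background with free access to food, with 1 library per mouse. Stat5Adipoq mice carried floxed Stat5 alleles and an Adipoq-Cre transgene, which deletes Stat5a and Stat5b in adipocytes and leaves them in the other cells of the tissue. According to the methods, the controls were floxed littermates without Cre, so both groups shared the floxed alleles, whereas the labels call the controls wild type.

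Type I cytokine receptors have no kinase of their own. Binding of a ligand brings receptor chains together, the Janus kinases bound to their tails are activated, and STAT proteins that dock on phosphorylated tails are then phosphorylated and move to the nucleus. The prolactin, erythropoietin, GM-CSF and interleukin 3 receptors are well-known activators of STAT5, while the leptin receptor and receptors that contain gp130 act mainly through STAT3, and the interleukin 4 receptor mainly through STAT6. In adipose tissue growth hormone is regarded as a main activator of STAT5.

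The libraries held 8488129 to 19514904 counts on genes. Levels are given as CPM, the count of a gene relative to the library total after TMM scaling in edgeR. Of the deleted genes, Stat5a had 105 ± 17.0 CPM in control against 17.1 ± 2.05 CPM in Stat5Adipoq BAT, and Stat5b had 83.8 ± 5.51 against 21.8 ± 0.723 CPM (SD, n = 5 each). The libraries of the 2 genotypes did not overlap for either gene. As a check of the tissue, Ucp1, which defines brown adipocytes, averaged 9812 CPM. Control replicate 3 stood apart from the other libraries, with a summed level of 8 skeletal muscle markers of 3445 CPM against 36.4 to 325 CPM in the other 9 libraries, and a summed level of 6 liver markers of 78.0 CPM against 0.551 to 3.85 CPM. Values without this library are given for Csf2rb, which then passed the threshold, and for Il2rg, Il4ra and Osmr.

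None of the 10 receptor genes differed between control and Stat5Adipoq BAT past an adjusted p of 0.05 in edgeR's quasi-likelihood test, in which 2.71% of the 13568 tested genes passed, 1.40% with a higher and 1.31% with a lower level in Stat5Adipoq BAT. Epor, the erythropoietin receptor, was nearest to the threshold, with a Stat5Adipoq mean that was 0.572 of the control mean. Csf2rb, the common β chain of the GM-CSF, interleukin 3 and interleukin 5 receptors, came next, with a ratio of means of 0.781. The other 8 receptors had log2 fold changes between -0.64 and 0.28 and adjusted p-values between 0.48 and 0.94 in edgeR. Without adjustment, 2 of the 10 genes had a p below 0.05, against 15.2% of all tested genes. The median log2 fold change of the 10 was -0.07, with 6 below 0 and 4 above, while the median of all tested genes was -0.0028. The Wald test of DESeq2 called 1 of the 10, Epor, and 4.86% of all genes. BAT is a mixture of cells, and in bulk RNA fewer cells of a type cannot be told apart from less receptor mRNA per cell.

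**Figure D1:**
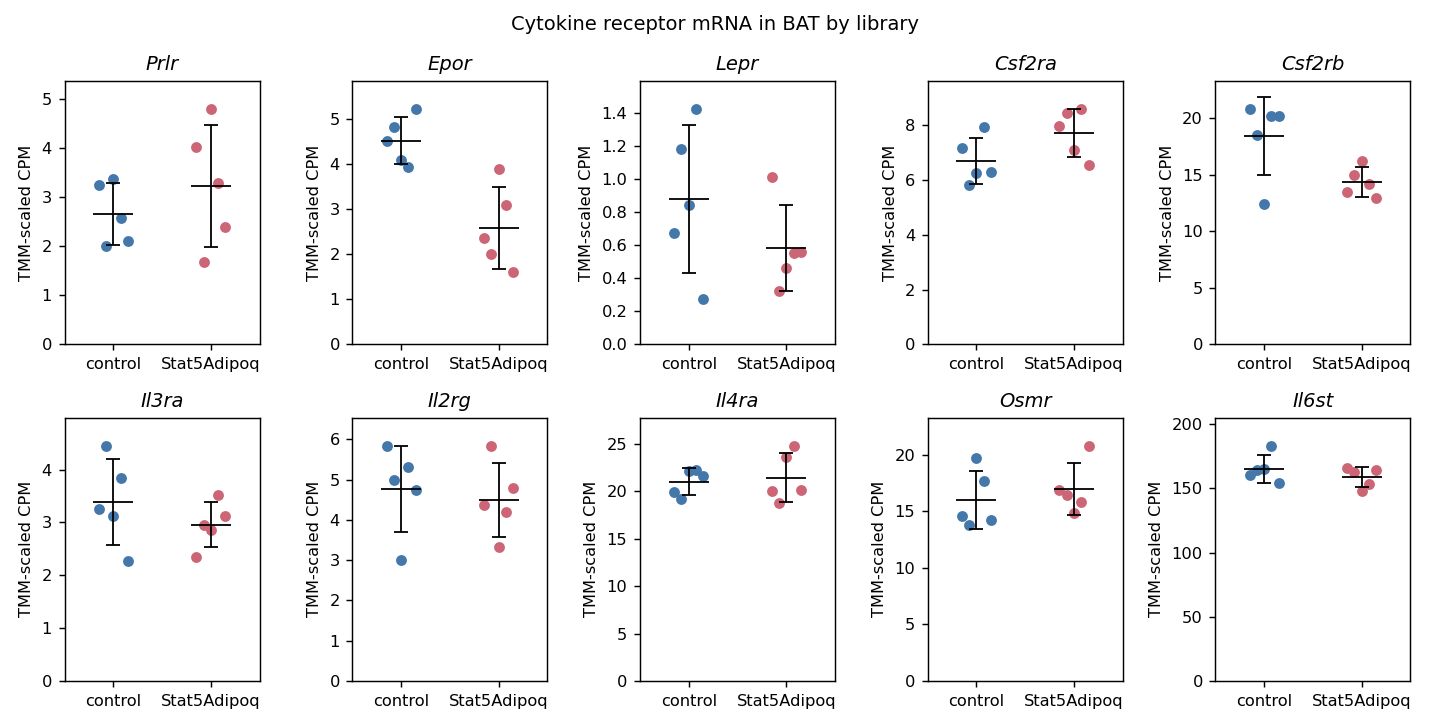
TMM-scaled CPM of the 10 receptor genes in each library (points), with the mean and SD of the 5 control and the 5 Stat5Adipoq libraries (bars). For Epor all 5 Stat5Adipoq libraries lie below all 5 controls, while the genotypes overlap for the other 9 genes, and for Csf2rb the control value of 12.4 CPM lies below all Stat5Adipoq values.

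The levels of the receptors were compared as RPKM, which divides the CPM of a gene by the length of its exons in kilobases. Il6st, which encodes the signal chain gp130, was the most abundant with 14.9 ± 0.959 RPKM (SD, n = 5) in control BAT. It was followed by Il4ra with 3.51 ± 0.233 RPKM and Csf2rb with 2.53 ± 0.477 RPKM (SD, n = 5 each). Csf2ra, Epor, Il2rg, Osmr and Il3ra then followed within a narrow range, from 2.33 ± 0.297 RPKM for Csf2ra to 1.14 ± 0.273 RPKM for Il3ra. The control ranges of each neighbouring pair from Csf2rb down to Il3ra overlapped. The order of these pairs held in 3 or 4 of 5 control libraries and, by pair, in 0 to 5 of 5 Stat5Adipoq libraries. Of them, Il2rg lay above Osmr and Osmr above Il3ra in 4 of 5 control and 5 of 5 Stat5Adipoq libraries. Prlr with 0.173 ± 0.0414 RPKM and Lepr with 0.124 ± 0.0630 RPKM (SD, n = 5 each) were the lowest and overlapped with each other. The steps from Il6st to Il4ra, from Il4ra to Csf2rb and from Il3ra to Prlr were larger than the spread, with control means that differed 4.25-fold, 1.39-fold and 6.59-fold and libraries that kept the order in 5 of 5 cases in both genotypes. From Il6st to Lepr the control means spanned 120-fold. When the longest transcript was used in place of all exons, Epor moved from rank 5 to rank 7 and Osmr from rank 7 to rank 5, and the other ranks were the same. On that length the control means of Il4ra and Csf2rb were 4.01 and 3.76 RPKM. The 1.39-fold step between these 2 genes thus depended on the length used.

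**Figure D2:**
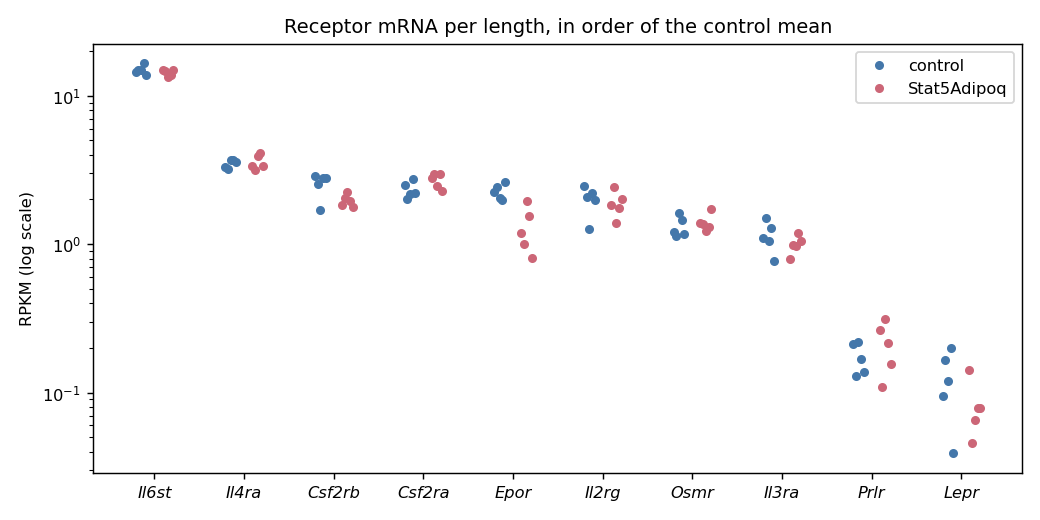
RPKM of the 10 receptor genes on a log axis, in order of the control mean, with 1 point per library (blue, control; red, Stat5Adipoq). Il6st stands highest at 14.9 RPKM in control, 7 genes lie between 1.14 and 3.51 RPKM, and Prlr and Lepr lie at 0.173 and 0.124 RPKM (all control means).

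Among the receptors that bind a hormone with identical chains, Epor was examined first. The gene lies on chromosome 9 of GRCm38 from 21958897 to 21963576 and shares none of its 50-base words with another gene. Its 5 control libraries had 4.50, 4.81, 4.09, 3.94 and 5.21 CPM and its 5 Stat5Adipoq libraries 2.35, 1.99, 3.88, 3.08 and 1.60 CPM. Every Stat5Adipoq library was below every control, although Stat5Adipoq replicate 3 with 3.88 CPM nearly reached control replicate 4 with 3.94 CPM. Non-overlap of this kind was seen for 1 of the 10 receptors and for 4.39% of all tested genes, with the Stat5Adipoq libraries lower in 2.04%. The means were 4.51 ± 0.519 and 2.58 ± 0.910 CPM (SD, n = 5 each), a log2 fold change of -0.82 (standard error 0.22, 95% confidence limits -1.30 and -0.34, edgeR adjusted p = 0.076). By exact permutation of the libraries (two-sided, on log2 CPM) the unadjusted p was 0.0079, the smallest that 5 against 5 libraries allow. Epor passed the threshold in 3 of 18 other fits, with an adjusted p of 0.015 in DESeq2's Wald test, 0.041 in limma-voom and 0.035 in edgeR without Stat5Adipoq replicate 3. The counts behind these values were small, between 20 and 78 per library.

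Epor is best known from red cell precursors, and markers of other cell types were therefore set beside it. The 4 globin genes of the red cell list were listed at 0 in all libraries, which can also be a failed count. Klf1, a transcription factor of red cell precursors, reached at most 3 counts in a library. Alas2, the erythroid form of the first enzyme of haem synthesis, was 9.67 CPM in the mean of control and 17.5 CPM in that of Stat5Adipoq BAT, with a log2 fold change of 0.87 that has the opposite sign to that of Epor (edgeR adjusted p = 0.19). The summed level of the 7 red cell genes was 5.71 to 16.5 CPM in control and 9.31 to 27.1 CPM in Stat5Adipoq libraries. Of these genes 6 averaged below 1 CPM, and the sum was nearly that of Alas2 alone. Alas2 ranged from 5.61 to 16.1 CPM in control and from 9.22 to 26.8 CPM in Stat5Adipoq libraries. Epor is also expressed by endothelium and adipocytes. All 8 endothelial markers had a fold change above 0 and none was called, with summed levels of 783 to 930 CPM in control and 844 to 1019 CPM in Stat5Adipoq BAT. None of the 8 brown adipocyte markers was lower past the threshold, and Cox7a1 was higher. Of the 8, 5 had a fold change below 0 and 3 above, with a median of -0.02 on the log2 scale. The part of any of these cells in the Epor values was not tested.

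The promoter windows of the receptors were searched for the core STAT5 element TTCNNNGAA, because Epor and Prlr belong to the receptors closest to STAT5. Windows from RefSeq (GRCm38.p6), which run from 250 bases before the transcript start to 50 after it, were found for 9 of the 10 genes, all except Csf2rb, with 12 windows in all. The element, which reads the same on both strands, was found in 1 of the 12 windows, at 1 of the 3 starts of Prlr, and in 8.30% of all 32851 windows. The same element with a spacer of 4 in place of 3 bases was found in none of the 12 and in 6.95% of all windows. The Epor window held no TTCNNNGAA. It held the GATA motif AGATAA, a classical element of erythroid promoters. This motif is read as TTATCT on the printed strand and is present in 11.2% of all windows. The Epor window also held the GC box GGGCGG, read as CCGCCC and present in 35.7% of all windows. Both motifs were searched for after the other results were known. Among the receptors AGATAA was found in 1 of the 12 windows, that of Epor. GGGCGG was found in 7 of the 12 windows, which belonged to 7 of the 9 genes. The 250 bases upstream of the start are given for Epor, whose mRNA came nearest to a difference, and for the Prlr start with the STAT5 element, with the named motifs in capitals.
Epor, chr9:21963577-21963826, minus strand: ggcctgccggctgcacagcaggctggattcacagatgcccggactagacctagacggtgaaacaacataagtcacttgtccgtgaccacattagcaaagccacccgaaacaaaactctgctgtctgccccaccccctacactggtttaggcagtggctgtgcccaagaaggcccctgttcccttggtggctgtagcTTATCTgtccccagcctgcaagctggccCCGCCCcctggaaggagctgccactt
Prlr, chr15:10223656-10223905, plus strand: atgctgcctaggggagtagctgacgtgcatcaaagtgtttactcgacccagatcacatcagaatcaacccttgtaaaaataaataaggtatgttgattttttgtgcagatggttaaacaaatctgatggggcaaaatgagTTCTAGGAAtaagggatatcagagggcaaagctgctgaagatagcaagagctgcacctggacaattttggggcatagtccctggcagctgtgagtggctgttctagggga
In Epor the GATA motif starts 54 bases and the GC box 26 bases before the transcript start, and in Prlr the STAT5 element starts 110 bases before it. A match of letters does not show that a factor binds there.

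Prlr, the prolactin receptor on chromosome 15 from 10177238 to 10349190, was expressed at 3.26, 2.00, 3.37, 2.58 and 2.10 CPM in control and at 4.02, 1.67, 4.80, 3.30 and 2.40 CPM in Stat5Adipoq BAT. Stat5Adipoq libraries were both the highest and the lowest of all. The log2 fold change was 0.28 with 95% confidence limits of -0.33 and 0.88 (edgeR adjusted p = 0.71), limits that include differences in either direction, at 22 to 52 counts per library. It was 0.09 without Stat5Adipoq replicate 3 and 0.45 without Stat5Adipoq replicate 2. The gene has long and short forms of the receptor that counts per gene do not separate. Lepr, the leptin receptor on chromosome 4 from 101717137 to 101815352, was the scarcest of the 10, with 7, 13, 7, 28 and 3 counts in control and 12, 5, 5, 5 and 7 counts in Stat5Adipoq libraries. This corresponds to 0.876 ± 0.444 and 0.580 ± 0.257 CPM (SD, n = 5 each) and a fitted log2 ratio of -0.64 (limits -1.58 and 0.29, edgeR adjusted p = 0.53). The spread of Lepr within control was wide, since the highest and the lowest library of the 10 were both controls.

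Csf2rb, Csf2ra and Il3ra form the receptors for GM-CSF and interleukin 3, in which an α chain specific for the ligand joins the common β chain that carries the signal. Csf2rb, on chromosome 15 from 78325800 to 78351001, was 20.8, 18.5, 12.4, 20.2 and 20.2 CPM in control and 13.5, 15, 16.2, 14.2 and 12.9 CPM in Stat5Adipoq BAT. Of the controls 4 lay above all Stat5Adipoq libraries, and control replicate 3 lay below all of them. With all libraries the log2 fold change was -0.36 (standard error 0.13, limits -0.65 and -0.08, edgeR adjusted p = 0.20, exact permutation test p = 0.063). Without control replicate 3 it was -0.47 and passed the threshold (edgeR adjusted p = 0.011), and without control replicates 3 and 4 it was -0.46 (adjusted p = 0.029), which was added once the values were known. In control replicate 3 the summed level of 12 macrophage markers was 203 CPM, within the 157 to 246 CPM of the other libraries. Its B cell markers (2.65 CPM against 3.13 to 5.03), endothelial markers (783 against 829 to 1019) and pericyte markers (715 against 749 to 872) lay below those of the other 9 libraries. Its dendritic cell markers (20.2 CPM against 22.8 to 27.8) and its granulocyte and mast cell markers (27.3 against 32.3 to 38.9) lay below those of the other 4 controls. Both sums lay within the range of all other 9 libraries, 19.9 to 27.8 and 25.7 to 58.6 CPM. In the mean of all libraries 5 of 6 B cell, 5 of 8 dendritic cell and 6 of 10 granulocyte and mast cell genes were below 1 CPM. Zbtb46 at 17.3 CPM made up most of the dendritic cell sum, and Kit at 30 CPM most of the granulocyte and mast cell sum. Its brown adipocyte markers (20258 CPM against 10391 to 18128) lay above those of the other 9 libraries. Its red cell markers, of which 6 of 7 averaged below 1 CPM over all libraries, summed to 16.5 CPM. This sum lay above the 5.71 to 10.6 CPM of the other 4 controls, but within the 5.71 to 27.1 CPM of the other 9 libraries. Its T and NK cell markers (14.8 CPM), fibroblast markers (1464 CPM) and Schwann cell markers (198 CPM) lay within the range of the other libraries. The part of any of these cells in its Csf2rb value was not tested.

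Csf2rb shares 18.4% of the 50-base words of its longest transcript with other genes, most with Csf2rb2, a mouse gene beside it that encodes the β chain specific for the interleukin 3 receptor. Reads that fall in these stretches cannot be told apart, and both values are uncertain to that extent. Csf2rb2 had 2.62 ± 1.19 CPM in control against 2.15 ± 0.593 CPM in Stat5Adipoq BAT (SD, n = 5 each) (log2 fold change -0.32, edgeR adjusted p = 0.69). When the counts of both were summed, the log2 fold change was -0.35 (edgeR adjusted p = 0.22), close to that of Csf2rb alone. Myeloid cells are known to express Csf2rb. None of the 12 macrophage markers was called and 10 of the 12 had a fold change below 0. Their summed level was 187 to 246 CPM in control and 157 to 204 CPM in Stat5Adipoq libraries. None of the 12 averaged below 1 CPM, and their part in the Csf2rb values was not tested.

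Csf2ra, the α chain for GM-CSF on chromosome 19 from 61217191 to 61228461, had values of 7.18, 5.81, 6.25, 7.94 and 6.30 CPM in control and 7.96, 8.46, 7.11, 8.59 and 6.55 CPM in Stat5Adipoq BAT. The upper 3 values were Stat5Adipoq libraries, but the genotypes overlapped. Its log2 fold change of 0.20 had limits of -0.06 and 0.46 (edgeR adjusted p = 0.48, exact permutation test p = 0.095). Il3ra, the α chain for interleukin 3 on chromosome 14 from 14345912 to 14355493, ranged from 2.28 to 4.45 CPM in control, with a median of 3.26, and from 2.35 to 3.53 CPM in Stat5Adipoq BAT, with a median of 2.95. The control libraries enclosed all Stat5Adipoq libraries, and the log2 fold change was -0.21 (limits -0.62 and 0.21, edgeR adjusted p = 0.68). In RPKM, Csf2rb exceeded Csf2ra in 4 of 5 control libraries and in 0 of 5 Stat5Adipoq libraries, a count that follows from the values above and was not tested. Il5ra, the α chain for interleukin 5, averaged 0.1 counts per library and was not tested.

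Il2rg encodes the common γ chain of the interleukin 2, 4, 7, 9, 15 and 21 receptors, and Il4ra the α chain that joins it to bind interleukin 4. Il2rg lies on chromosome X from 101264385 to 101268255, and 30.5% of its exon bases are also exons of Gm20489, a gene model on the same strand. Reads in these exons cannot be told apart between them. Il2rg ranged from 3.01 to 5.84 CPM in control, with a median of 4.99, and from 3.32 to 5.83 CPM in Stat5Adipoq BAT, with a median of 4.36. The lowest value of all was that of control replicate 3, and the log2 fold change was -0.09 (limits -0.50 and 0.32, edgeR adjusted p = 0.89), or -0.20 without that library (edgeR adjusted p = 0.61). Il4ra, on chromosome 7 from 125552271 to 125579474, was 21.1 ± 1.40 CPM in control and 21.5 ± 2.58 CPM in Stat5Adipoq BAT (SD, n = 5 each). The ranges were 19.2 to 22.3 and 18.8 to 24.8 CPM, so that the Stat5Adipoq libraries enclosed the controls. Of its exon bases 9.51% overlap Gm44876 on the other strand, whose reads could be counted with Il4ra if strand was not used. With a log2 fold change of 0.02 and limits of -0.17 and 0.22, Il4ra had the value nearest to 0 of the 10 (edgeR adjusted p = 0.94), and without control replicate 3 it was 0.04.

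Il6st and Osmr encode gp130 and the oncostatin M receptor chain that joins it. Il6st, on chromosome 13 from 112464070 to 112506860, was 160, 164, 165, 183 and 154 CPM in control and 166, 163, 148, 153 and 164 CPM in Stat5Adipoq BAT. The values were close in both groups, and with about 1974 counts per library this receptor had the narrowest limits of the 10. Its log2 fold change was -0.06 with limits of -0.19 and 0.07 (edgeR adjusted p = 0.71). Osmr, on chromosome 15 from 6813568 to 6874968, ranged from 13.8 to 19.7 CPM in control, with a median of 14.6, and from 14.9 to 20.8 CPM in Stat5Adipoq BAT, with a median of 16.5. The groups overlapped, and the log2 fold change was 0.09 (limits -0.18 and 0.35, edgeR adjusted p = 0.81), or 0.16 without control replicate 3 (edgeR adjusted p = 0.56).

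**Figure D3:**
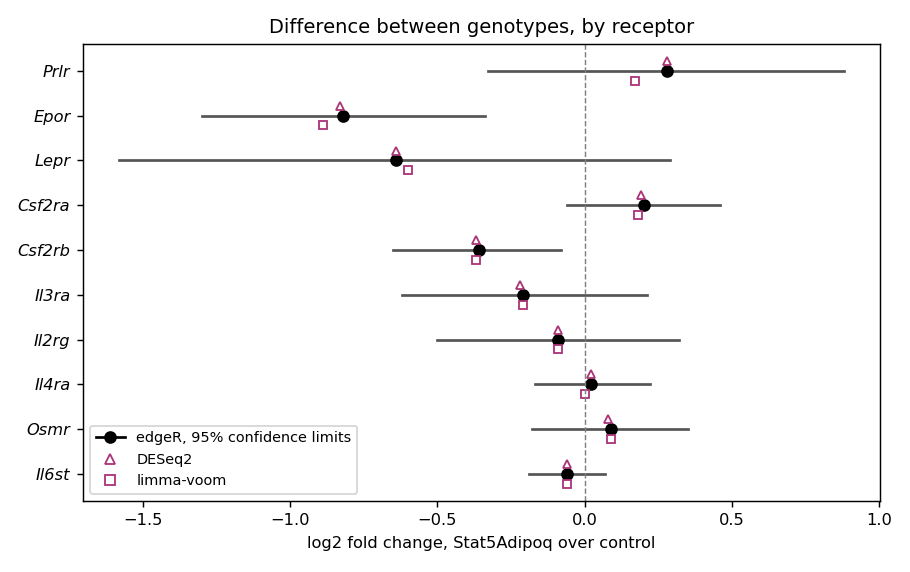
Log2 fold change of each receptor gene, Stat5Adipoq over control, from edgeR (filled circles) with 95% confidence limits (lines), beside the estimates of DESeq2 (triangles) and limma-voom (squares). The limits of Epor (-1.30 and -0.34) and Csf2rb (-0.65 and -0.08) lie below 0, those of the other 8 genes include 0, and Lepr has the widest.

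Other chains that pair with these receptors were listed next. Of 17 partner chains, 12 passed the filter on low counts and none was called. The median of their log2 fold changes was -0.09. The 2 with the highest RPKM were Il15ra, the α chain for interleukin 15, at 80.0 ± 8.44 CPM in control and 79.7 ± 7.14 CPM in Stat5Adipoq BAT (SD, n = 5 each), and Cntfr, the α chain for ciliary neurotrophic factor. Cntfr was 20.8 ± 8.4 and 32.0 ± 4.67 CPM (SD, n = 5 each), which is 0.63 on the log2 scale (limits 0.12 and 1.14, edgeR adjusted p = 0.21). Il2rb, the β chain shared by interleukins 2 and 15, was named after its values were seen. It was 2.59 ± 1.59 and 1.2 ± 0.369 CPM (SD, n = 5 each), with a log2 fold change of -1.12 (limits -1.93 and -0.32, edgeR adjusted p = 0.15).

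Of 16 further cytokine receptors, 11 were tested and 1, Ghr, was called. The growth hormone receptor Ghr was 278 ± 11.8 CPM in control and 211 ± 9.73 CPM in Stat5Adipoq BAT (SD, n = 5 each), with a log2 fold change of -0.40 and no overlap of libraries (edgeR adjusted p = 0.0023). By RPKM the highest of these receptors were the interferon receptor chains Ifnar2 at 107 ± 6.10 and 111 ± 11.8 CPM and Ifngr1 at 81.2 ± 5.73 and 74.9 ± 7.90 CPM (SD, n = 5 each), neither of them called. Most ligands were hardly measured in the tissue, as 7 of 24 ligand genes passed the filter and 6, Prl, Epo, Il3, Il9, Il13 and Il21, were listed at 0 in every library. Thus the ligands of the prolactin and erythropoietin receptors were not detected as mRNA in BAT at this depth. The highest ligands were Lep, which encodes leptin, at 18.4 ± 9.76 CPM in control and 28.2 ± 9.57 CPM in Stat5Adipoq BAT (SD, n = 5 each), and Ctf1, which encodes cardiotrophin 1, at 6.53 ± 1.36 and 6.32 ± 0.971 CPM (SD, n = 5 each). None of the 7 tested ligands was called, and the limits of Lep were -0.08 and 1.32 on the log2 scale.

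All 9 Janus kinases and other STATs were tested and none was called, with a median log2 fold change of -0.03. Stat6, the main STAT of the interleukin 4 receptor, had 97.1 ± 8.96 CPM in control and 93.8 ± 5.56 CPM in Stat5Adipoq BAT (SD, n = 5 each), with limits of -0.20 and 0.10 on the log2 scale. Stat3, the main STAT of Lepr and gp130 and named after its values were seen, was 103 ± 6.16 and 92.4 ± 7.80 CPM (SD, n = 5 each), with limits of -0.31 and -0.01 around a log2 fold change of -0.16 (edgeR adjusted p = 0.28). Of 20 regulators of cytokine signalling (inhibitors, phosphatases and adaptors), 19 were tested and 1 was called. This was Cish, a classical STAT5 target that inhibits these receptors, at 36.2 ± 5.01 CPM in control and 8.53 ± 5.78 CPM in Stat5Adipoq BAT (SD, n = 5 each), a log2 fold change of -2.06 (edgeR adjusted p = 0.011). The 2 with the highest RPKM, the phosphatase Ptpn11 and the adaptor Sh2b2, had log2 fold changes of 0.10 and 0.16 and were not called.

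**Figure D4:**
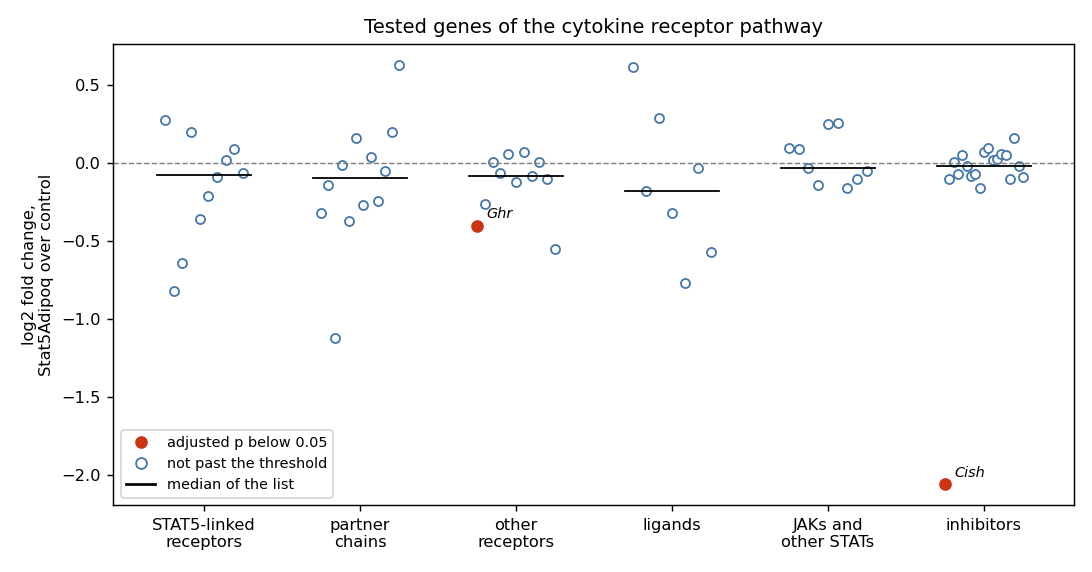
Log2 fold change of each tested gene, Stat5Adipoq over control, in the 6 lists (1 point per gene; filled, adjusted p below 0.05; line, median of the list). Ghr (-0.40) and Cish (-2.06) are the called genes, and the medians of the lists lie between -0.18 and -0.02.

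The dependence of the 2 receptors nearest to the threshold on the fit was drawn for each setting. Epor kept a log2 fold change between -1.01 and -0.69 in its 18 other fits, and Csf2rb one between -0.47 and -0.32 in its 19. The adjusted p of Epor ranged from 0.015 to 0.16 and that of Csf2rb from 0.011 to 0.35.

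**Figure D5:**
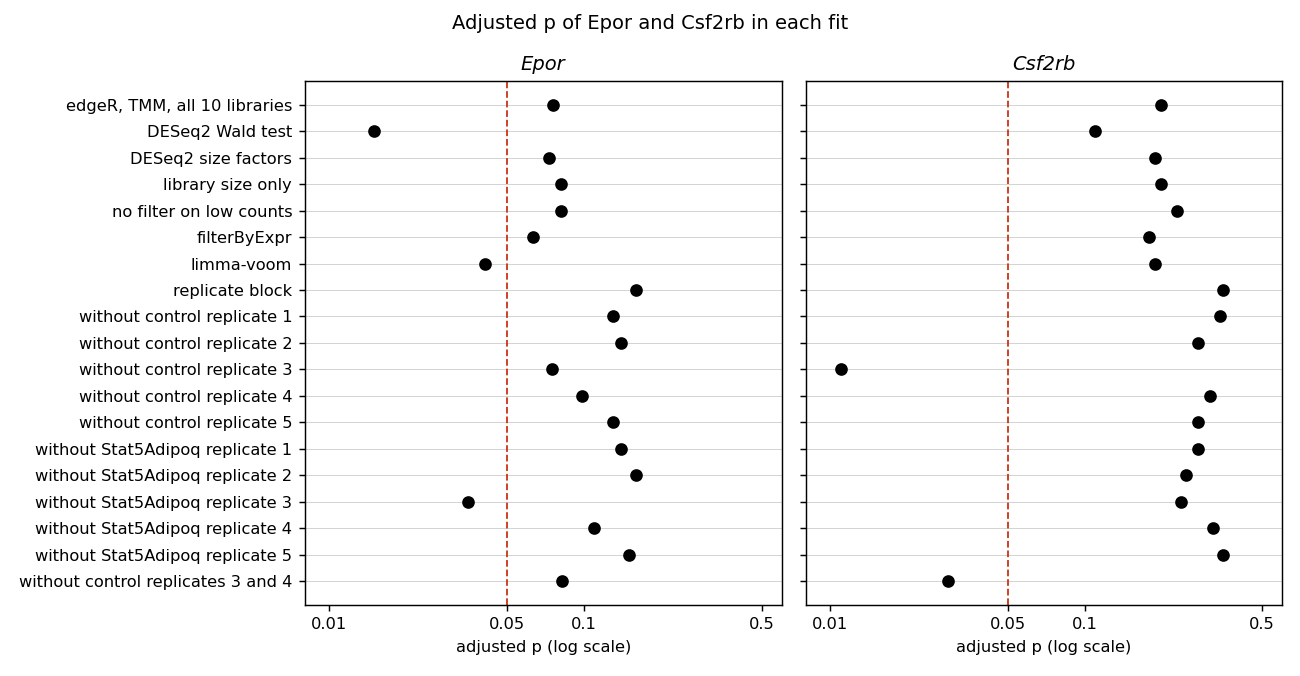
Adjusted p (log axis) of Epor and Csf2rb in the edgeR fit with all libraries and in 18 other fits, with a dashed line at 0.05. For Epor 3 of the other fits lie below the line, DESeq2, limma-voom and the fit without Stat5Adipoq replicate 3, and for Csf2rb 2 do, both without control replicate 3.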

How the data were processed

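BAT of 5 control and 5 Stat5Adipoq mice was measured by single-end RNA-Seq with reads of 50 bases. The submitters' processing notes name GRCm38, STAR 2.5.0b, featureCounts 1.5.0-p1 and DESeq2 1.16.1. The authors deposited the raw count of reads of each gene, by Entrez identifier. The kit was stranded, but the strand setting of the counting was not given in the sources used here. The authors' comparison (fold changes and p-values) was not used, and its table served only to pair symbols with identifiers. Groups and replicate numbers were taken from the sample titles.

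The receptors and gene lists were chosen with earlier results of these data known. Genes whose size-factor-normalised counts summed to above 45 were kept (13568). Genotypes were compared in edgeR 4.0.16 (R 4.3.3, TMM, quasi-likelihood F test, no covariate) with Benjamini-Hochberg adjustment over all tested genes at 0.05, and standard errors and 95% limits were derived from that test. For single genes, all 252 assignments of the libraries were enumerated on log2 CPM (prior count 0.5). Depth was 8488129 to 19514904 counts per library, and p-values measure the spread between these mice together with counting error. Exon lengths (96.4% of tested genes) and shared words of 50 bases were taken from GENCODE M21, and gene positions and promoters from RefSeq, both on GRCm38. In each pathway list the called genes and the 2 with the highest mean RPKM were named, and in each marker list at most the 2 highest and those at 0, except for genes that are not reported here. Csf2rb2, Il2rb, Il5ra, Stat3, Cox7a1 and Klf1 were named after their values were seen. The alternatives were DESeq2 1.42.0, limma-voom (limma 3.58.1), size factors or library size for scaling, no filter or that of edgeR, a block for the replicate number, a prior count of 2, single libraries left out and, added later, control replicates 3 and 4 left out and Csf2rb summed with Csf2rb2. The fits were tested on simulated counts. No pair of libraries was a duplicate (chi-square per degree of freedom at least 5.31).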

Additional observations from a re-analysis of the deposited data

Results flagged for a closer look

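Among 24 groups of 5 libraries examined for the 10 receptors, Stat5a and Stat5b, 2 held a library far from the other 4 for the range of its group, where chance gives about 1.2. Control replicate 3 had 12.4 CPM of Csf2rb, while the other 4 controls had 18.5 to 20.8 CPM. Stat5a was 20.7 CPM in Stat5Adipoq replicate 1, against 15.8 to 16.6 CPM in the other Stat5Adipoq libraries.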

How the results depend on the processing

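Since edgeR with all libraries called no receptor, no call could be lost under another setting. Of 180 fold changes of the receptors under other settings, 170 kept their sign and their side of the threshold, 5 came to pass it and 5 changed sign without passing it. Those that passed were Epor (-0.83 with DESeq2, -0.89 with limma-voom and -1.01 without Stat5Adipoq replicate 3) and Csf2rb (-0.47 without control replicate 3 and -0.46 without control replicates 3 and 4). Those that changed sign were Il2rg (0.001 without Stat5Adipoq replicate 3, in a range from -0.21 over single libraries left out), Osmr (-0.003 without Stat5Adipoq replicate 5, up to 0.16) and Il4ra (up to 0.07, and -0.01 without control replicate 2, -0.01 without Stat5Adipoq replicate 3 and -0.03 without Stat5Adipoq replicate 4). The number of receptors called, beside that of all genes, was 0 and 368 in edgeR with all libraries, 1 and 660 in DESeq2, 1 and 386 in limma-voom, and 1 and 363 without control replicates 3 and 4. With 1 library left out it was 0 to 1 beside 185 (without Stat5Adipoq replicate 3) to 443 (without control replicate 3). Apart from Epor and Csf2rb no receptor was called with 1 library left out, but fold changes moved, from 0.09 (without Stat5Adipoq replicate 3) to 0.45 (without Stat5Adipoq replicate 2) for Prlr, from -0.94 (without Stat5Adipoq replicate 1) to -0.36 (without control replicate 4) for Lepr, from -0.32 (without control replicate 5) to -0.10 (without control replicate 2) for Il3ra and from -0.08 to -0.02 (without control replicate 4) for Il6st. The causes were not tested. Lepr was not tested under edgeR's own filter on low counts. Same-numbered libraries did not deviate together (correlations of -0.24 to 0.176 over the 5 numbers, with 1 of 5 numbers as its own best match). With the replicate block the log2 fold change of Epor was -0.85 (adjusted p = 0.16), no receptor was called, and 273 genes were called in all. A prior count of 2 changed no side of the threshold in the exact permutation tests. Lepr had 9.2 counts on average, and counting error and the spread between mice were not separated.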

Other observations

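Markers of lymphocytes were low in the tissue. Of 9 T and NK cell markers with a count, 6 were tested and none was called, and 5 of the 6 had a fold change below 0 with a median of -0.79 on the log2 scale. Their summed level was 12.8 to 18.7 CPM in control and 8.79 to 17.1 CPM in Stat5Adipoq libraries. The highest was Thy1, at 9.07 and 9.93 CPM in the means of control and Stat5Adipoq BAT (log2 fold change 0.13, edgeR adjusted p = 0.73). It was followed by Cd4, at 1.91 and 1.10 CPM (log2 fold change -0.76, edgeR adjusted p = 0.26). The other 7 T and NK cell markers averaged below 1 CPM. Of 6 B cell markers 4 were tested, with a median of 0.24 and no call. Of 8 dendritic cell markers 6 were tested, with a median of -0.52 and no call. Of 10 granulocyte and mast cell markers 6 were tested, with a median of 0.05 and no call, and Epx was listed at 0. In these lists 5 B cell, 5 dendritic cell and 6 granulocyte and mast cell genes averaged below 1 CPM. Among stromal lists, none of 8 fibroblast, 6 pericyte and smooth muscle and 5 Schwann cell markers was called, and the 5 Schwann cell markers all had a fold change below 0.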
